A study of Mus musculus with 2 samples.

Results

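Psca, Lypd2, Lypd3, Slurp1, Ly6d, Ly6a, Ly6e and Ly6g6c are 8 genes of the Ly6 family among the 31053 genes in the files. They were taken by symbol, and each symbol matched 1 gene. The 8 were chosen from measured values of these same libraries, among them the low Psca level of luminal-like cells in the progesterone library, so the differences between the libraries are given below as a description, with no test. Single-cell RNA sequencing (10x Genomics 3′ kit) counted transcripts in cells of the cervix of ovariectomised C57BL6/129 female mice, ovariectomised at 7 to 8 weeks of age, in a study of luminal progenitor cells marked by Olfm4 and of a secretory lineage. Mice of both groups had 2 weeks to recover from the removal of the ovaries, and their cervix was dissected below the transition zone and freed of vaginal tissue. The control mice had no treatment over 15 days. The progesterone mice had 100 µg of estradiol (E2) per day for 2 days, injected under the skin in 100 µL of corn oil, and then a 25 mg pellet that releases progesterone over 21 days, about 1 mg per day. Cells of 9 mice were pooled into 1 library per group, so there are no replicates. Estradiol, oil, injection, pellet and progesterone cannot be told apart, and every interval below covers counting error only.

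Ly6 family proteins carry a small disulfide-rich domain folded into 3 loops, as in snake toxins that block nicotinic acetylcholine receptors. Most members are held on the outside of the cell membrane by a glycosylphosphatidylinositol (GPI) anchor, and a few, such as Slurp1, are secreted and act on those receptors. In stratified epithelia the family marks layers of the tissue: Ly6d and Lypd3 (also called C4.4A) are known from keratinocytes and Slurp1 from the upper layers, while Psca (prostate stem cell antigen) is known from the surface of several lining epithelia. Ly6a (Sca-1) is a widely used mark of stem and progenitor cells, and Ly6e is an interferon-inducible gene found in many cell types.

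Of the 8 genes 6 lie within 283193 bp of chromosome 15 in the GRCm38 annotation of GENCODE release M21. Psca (chr15:74714839-74717069, plus strand) is followed by Slurp1 (chr15:74724318-74728034, minus strand) after a gap of 7248 bp and by Lypd2 (chr15:74732247-74734329, minus strand) after a further 4212 bp, with no other protein-coding gene between them. Ly6d (chr15:74762056-74763620, minus strand) is 27726 bp further on, beyond Slurp2 and Lynx1. Ly6e (chr15:74955051-74959905, plus strand) and Ly6a (chr15:74994877-74998031, minus strand) stand at the far end. Lypd3 (chr7:24636550-24641118, plus strand) and Ly6g6c (chr17:35065388-35070050, plus strand) are on other chromosomes. The 3 genes with the largest fold differences in luminal-like cells, Psca, Slurp1 and Ly6g6c, are thus neighbours only in part, and the levels below are compared gene by gene.

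The RefSeq promoter table held 2 of the 8 genes, Lypd3 and Ly6g6c, which are also the pair outside the chromosome 15 cluster, with their control levels highest in suprabasal squamous-like and in luminal-like cells respectively. The 250 bases before each RefSeq start site (GRCm38.p6, plus strand, 5′ to 3′) are shown to let the pair be compared. These start sites differ from the GENCODE gene positions given above. The Ly6g6c window lies inside the GENCODE gene, and the Lypd3 window runs past the GENCODE start of that gene. Capitals mark a match on either strand to the TATA box TATAAA, the GC box GGGCGG, the CCAAT box or the CACCC box.
Lypd3 promoter, chr7:24636320-24636569: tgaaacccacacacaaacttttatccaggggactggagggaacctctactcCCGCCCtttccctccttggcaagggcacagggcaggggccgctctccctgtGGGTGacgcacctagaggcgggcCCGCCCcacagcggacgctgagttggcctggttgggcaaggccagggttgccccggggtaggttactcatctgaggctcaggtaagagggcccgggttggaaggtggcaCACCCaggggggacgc
Ly6g6c promoter, chr17:35067075-35067324: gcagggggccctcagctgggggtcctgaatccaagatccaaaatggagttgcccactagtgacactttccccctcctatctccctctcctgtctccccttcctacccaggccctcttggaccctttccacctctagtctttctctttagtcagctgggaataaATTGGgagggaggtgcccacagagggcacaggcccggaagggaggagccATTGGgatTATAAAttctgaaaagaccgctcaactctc
The Lypd3 window had 2 GC boxes, 199 and 125 bases before the start site, 2 CACCC matches and no TATAAA. The Ly6g6c window had TATAAA 30 bases and CCAAT 87 and 38 bases before the start site, and no GC box. Over all 32851 promoters of the table, windows of the same length held TATAAA in 12.4%, GGGCGG in 32.7%, CCAAT in 33.9% and CACCC in 52.0%. The AP-1 motif TGANTCA, present in 6.75% of all promoters, was in neither window. Of the letters 65.2% were G or C for Lypd3 and 55.2% for Ly6g6c, against a median of 52.4% over the table. These matches describe the letters and no binding was measured.

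The control library held 5368 cell barcodes with 21658684 unique molecular identifiers (UMIs, 1 per captured transcript), and the progesterone library 10853 barcodes with 44811069 UMIs. After the cell filter and doublet removal 4579 and 8541 cells were analysed, with median depths of 3733 and 4151 UMIs. The libraries shared 19 barcodes, 12 of them among analysed cells. Cells were clustered without the 8 genes, so a family gene that leads a cluster did not define it. Clusters were named from fixed markers: luminal-like from simple-epithelium keratins such as Krt8 and Krt18, basal and suprabasal squamous-like from stratified ones such as Krt5 and Krt10. Luminal-like cells numbered 221 in the control library (4.83% of cells) and 2046 in the progesterone library (24.0%), and squamous-like cells 1907 and 4285. Clusters that stayed unnamed held 1817 control cells (39.7%) and 1064 progesterone cells (12.5%). The luminal-like and squamous-like ratios thus leave out unequal parts of the 2 libraries. All 8 luminal markers were at 50 CPM or more (UMIs of a gene per 1000000 UMIs of the class) in luminal-like cells of both libraries. The control luminal-like cells also held Krt5 at 2722 CPM, Krt13 at 5018 CPM and Cnfn at 293 CPM, against 924, 1621 and 0.0962 CPM (1 UMI of Cnfn) in the progesterone library, and the part of these squamous transcripts in the results below was not tested. Different clusters filled the luminal-like class in the 2 libraries. Of the 221 control cells 113 were in cluster 11, led by Psca, Tff1 and Olfm4, and 91 in cluster 17, led by Agr2, Muc5b and Spdef. The progesterone cells were mostly in cluster 12, led by Clca1 and Olfm4 (732 cells), cluster 13, led by Tff1, Agr2 and Muc5b (718 cells), and cluster 17 (559 cells). Only cluster 17 held more than 20 luminal-like cells of each library.

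In luminal-like cells 5 of the 8 genes were at least 2-fold lower in the progesterone library and none was at least 2-fold higher. Of all 11283 genes with at least 20 UMIs in this class, 7.91% were at least 2-fold lower and 12.6% at least 2-fold higher. The 5 were Psca, Slurp1, Ly6g6c, Lypd2 and Ly6d. Without cluster 11 Ly6g6c was no longer among them, with a log2 ratio of −0.98 instead of −3.82, and with the unnamed cluster 18 added Ly6a joined them, at −2.21 instead of −0.51. In squamous-like cells 5 of the 8 were again lower, Slurp1, Ly6g6c, Ly6d, Lypd3 and Psca, and none higher, against 6.53% and 12.3% of 12446 genes. Psca there, at 11.8 and 4.94 CPM, was below its level in neutrophil-like cells (211 and 13.4 CPM). The squamous Psca difference was thus not read above that background. The median log2 ratio over the 8 genes was −1.60 in luminal-like and −1.59 in squamous-like cells, where the median over all genes was 0.03 and 0.14. Since the genes were chosen with such ratios in view, these counts and medians support nothing by themselves. Scaling without mitochondrial genes, ribosomal genes and the 20 most abundant genes raised every log2 ratio by 0.17 in luminal-like and 0.21 in squamous-like cells. Nearest to the 2-fold threshold were Ly6d inside it (2.63-fold lower) and Ly6a outside it (1.42-fold lower) in luminal-like cells, and Psca inside (2.38-fold lower) and Ly6e outside (1.55-fold higher) in squamous-like cells.

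**Figure D1:**
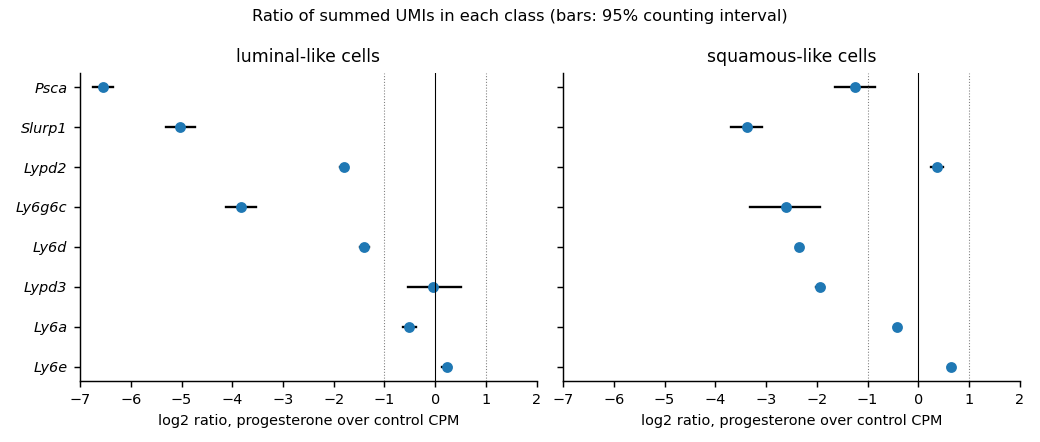
Log2 ratio of progesterone over control CPM (horizontal axis) of each Ly6 family gene (vertical axis) in luminal-like and squamous-like cells. Points are ratios of summed UMIs, bars 95% counting intervals, and dotted lines mark 2-fold. Psca lies at −6.54 in luminal-like cells and −1.25 in squamous-like cells, and Lypd2 is on opposite sides of 0 in the 2 classes. The squamous Psca levels were not above those of neutrophil-like cells.

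Psca had the widest range of the 8 genes. Its level in luminal-like cells was 2186 CPM [2083–2294] in the control and 23.4 CPM [20.5–26.5] in the progesterone library, 93.5-fold lower [81.7–107]. Of luminal-like cells with at least 2000 UMIs, each thinned to 2000, 55.3% [47.0–63.3] of 152 control and 4.20% [3.32–5.23] of 1809 progesterone cells had a Psca UMI, and before thinning the shares were 57.0% and 7.04%. The luminal-like classes had median depths of 2702 and 4931 UMIs. The thinned background share in basal squamous-like cells (median depths 3938 and 4317 UMIs) was 1.53% and 0.486%. Thinned to 1000 UMIs, 44.9% and 2.27% of luminal-like cells had a Psca UMI. The luminal share was thus lower in the progesterone library at both depths, and at 2000 UMIs above that of basal cells in both libraries. Within cluster 17, the luminal-like cluster with cells of both libraries, the level was 488 CPM in 91 control cells and 10.3 CPM in 559 progesterone cells, 47.4-fold lower [31.0–74.4]. Neutrophil-like cells had 211 and 13.4 CPM (43 and 5 UMIs), so the progesterone level of cluster 17 was not above that background. The 23.4 CPM of all progesterone luminal-like cells also lay inside the counting interval of those 5 neutrophil UMIs.

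Most Psca transcripts of both libraries came from cells outside the luminal-like class. Cluster 18, which stayed unnamed, held 79 control and 16 progesterone cells and was led by Sprr2d, Psca, Lcn2, Sprr2b, Ppbp and Cnfn, a component of the cornified envelope. Its Psca level was 20495 CPM [20114–20882] in the control and 28055 CPM [27374–28750] in the progesterone library, 1.37 times as high [1.33–1.41]. Every cell of cluster 18 held Psca, with 13 to 416 UMIs (median 109) in the control and 102 to 1034 (median 375.5) in the progesterone library. These 79 and 16 cells carried 61.4% of the control and 82.6% of the progesterone Psca UMIs. Of all Psca UMIs 50% lay in 37 control cells and in 7 progesterone cells. Over all analysed cells Psca was 890 and 204 CPM, 4.36-fold lower in the progesterone library, and without cluster 18 it was 353 and 35.7 CPM, 9.90-fold lower [9.33–10.5]. With cluster 18 counted as luminal-like, the luminal log2 ratio of Psca was −3.95 instead of −6.54, and without cluster 11 it was −4.48. So the Psca difference of luminal-like cells did not extend to cluster 18, where the few progesterone cells had the higher level.

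The cells of cluster 18 had all 8 luminal markers at 50 CPM or more (summed level 11661 and 14820 CPM), with Krt19 at 4551 and 7676 CPM, and little Krt5 (123 and 471 CPM). They also held the neutrophil marker S100a8, which stratified epithelia can express too, at 12442 and 9256 CPM. Only 2 of the 7 neutrophil markers reached 50 CPM there in either library, against 7 of 7 in neutrophil-like cells. Their summed level was 32248 and 22426 CPM in cluster 18 and 120680 and 124733 CPM in neutrophil-like cells. The part of neutrophil RNA in cluster 18 was not tested. Cluster 3, also unnamed, was led by Sprr2d, Lcn2, Sprr2f and Spink12, and held 1191 control cells (26.0% of the library) and 64 progesterone cells (0.749%). It had cornified, luminal and squamous transcripts together, with Sprr2f among its leading genes, Krt5 at 2472 and 1541 CPM and Krt19 at 520 and 1175 CPM. Psca was 710 CPM [690–730] in its control and 1809 CPM [1696–1928] in its progesterone cells, 2.55 times as high [2.38–2.73]. Psca was unevenly spread in cluster 3: the median control cell had no UMI and the highest 388.

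Among the other named classes Psca was low. Squamous-like cells had 11.8 CPM [9.72–14.1] in the control and 4.94 CPM [4.07–5.95] in the progesterone library. Neutrophil-like cells had 211 CPM [153–284] and 13.4 CPM [4.36–31.3], from 43 and 5 UMIs. Of the other unnamed clusters, cluster 15 (25 progesterone cells, 22 UMIs) had 578 CPM, cluster 8 (238 control cells, 141 UMIs) 142 CPM and cluster 9 (162 control cells, 23 UMIs) 124 CPM. Fibroblast-like cells had 4 UMIs in 78 control cells and none in 116 progesterone cells, where a count of 0 allows a share of cells with a UMI of up to 2.59%, at median depths of 917 and 2547 UMIs.

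**Figure D2:**
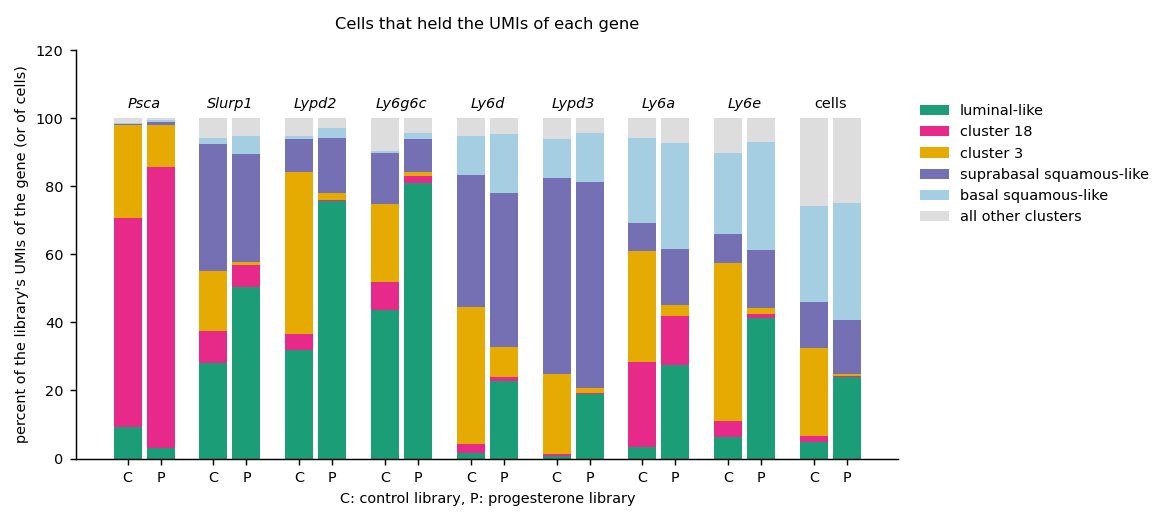
Percent of each library's UMIs of a gene (vertical axis) that lay in luminal-like cells, the unnamed clusters 18 and 3, suprabasal and basal squamous-like cells and all other clusters, with the same split for cells at the right. Cluster 18 held 61.4% and 82.6% of Psca UMIs, and luminal-like cells 31.9% and 75.7% of Lypd2 UMIs.

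Lypd2, a GPI-anchored family member, had the most UMIs of the 8 genes in control luminal-like cells (3′ counting does not scale with length), at 3209 CPM [3084–3339]. In progesterone luminal-like cells it was 917 CPM [899–936], 3.50-fold lower [3.35–3.66]. A Lypd2 UMI was read in 96.7% [92.5–98.9] of thinned control and 65.2% [63.0–67.4] of thinned progesterone luminal-like cells. Without cluster 11 the log2 ratio was −1.04 instead of −1.81. Thinned to 1000 UMIs the shares were 85.5% and 49.2%. At both depths the share of progesterone luminal-like cells with Lypd2 was above that with Psca. Every luminal-like cluster with at least 10 cells in both libraries had a lower Lypd2 level with progesterone, 2606 and 1412 CPM in cluster 12 (14 and 732 cells) and 1776 and 582 CPM in cluster 17. The mucous cells of cluster 13 were at 811 CPM [784–840] and the 36 cells of cluster 21, led by Prap1, at 82.3 CPM [54.2–120].

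In squamous-like cells the order was the opposite, 83.4 CPM [77.8–89.4] in the control and 108 CPM [104–112] in the progesterone library, a ratio of 1.29. Suprabasal cells had 181 and 235 CPM. Basal cells had 14.0 and 27.3 CPM. The progesterone level lay between those of progesterone fibroblast-like (24.7 CPM, 9 UMIs) and macrophage-like cells (34.4 CPM). In the control library fibroblast-like cells had no UMI, macrophage-like cells 7.85 CPM (2 UMIs) and neutrophil-like cells 54.0 CPM (11 UMIs). Erythrocyte-like cells had more, 334 CPM (68 UMIs) in the control and 86.8 CPM (67 UMIs) in the progesterone library. The control squamous-like and suprabasal levels were thus not above that class, and the part of free or attached epithelial RNA was not tested. In cluster 0, the suprabasal cluster with cells of both libraries, Lypd2 was 112 CPM in 205 control cells and 235 CPM in 1347 progesterone cells, 2.11 times as high [1.67–2.71]. Thinned shares of suprabasal cells with a UMI were 14.9% [11.9–18.4] and 28.2% [25.7–30.7]. The squamous direction depends on which cells are counted as squamous: with cluster 3, where Lypd2 was 532 and 471 CPM, the log2 ratio was −1.21 instead of 0.37. Over all analysed cells Lypd2 was 383 and 330 CPM, since cluster 3 held 47.5% of the control UMIs and luminal-like cells 75.7% of the progesterone UMIs.

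Slurp1, the secreted member, and Ly6g6c, which is encoded in the major histocompatibility complex region, followed each other closely. In luminal-like cells Slurp1 was 460 CPM [413–511] in the control and 14.1 CPM [11.9–16.6] in the progesterone library, 32.5-fold lower [26.7–39.7]. Ly6g6c was 254 CPM [219–292] and 17.9 CPM [15.4–20.7], 14.2-fold lower [11.5–17.4]. Nearly all of these transcripts in the control class came from cluster 11, 113 of its 221 cells. Cluster 11 held 339 of the 352 Slurp1 UMIs and 186 of the 194 Ly6g6c UMIs of control luminal-like cells, at 645 and 354 CPM. Without cluster 11, which left 108 control cells, the log2 ratio of Slurp1 was −1.99 instead of −5.02. In cluster 17 Slurp1 was 15.1 CPM [3.11–44.1] from 3 control UMIs and 15.6 CPM [11.4–21.0] from 44 progesterone UMIs, a ratio of 1.04 [0.332–5.22], so no difference could be read there at this depth.

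Of thinned luminal-like cells 27.6% [20.7–35.5] of the control and 2.05% [1.44–2.81] of the progesterone library had a Slurp1 UMI, and 19.1% [13.2–26.2] and 3.43% [2.64–4.37] a Ly6g6c UMI. Erythrocyte-like, fibroblast-like and blood endothelium-like cells had no UMI of either gene in either library. Among named classes the next highest control level of Slurp1 was in the suprabasal layer, with 116 CPM [106–127] in the control and 10.5 CPM [8.51–12.9] in the progesterone library, 10.97-fold lower [8.76–13.9]. Of the unnamed clusters, cluster 18 had 222 and 82.9 CPM and cluster 9 157 and 7.90 CPM. Of the 469 control UMIs in the suprabasal layer 457 were in cluster 6, a cluster led by the stress keratins Krt16 and Krt6b that held 416 control and 5 progesterone cells. In cluster 0 Slurp1 was 18.6 and 10.5 CPM, a difference within the counting interval of the ratio, 0.563 [0.307–1.13]. Ly6g6c in suprabasal cells was 16.3 and 2.52 CPM and in basal cells under 1 CPM in both libraries, from 3 and 4 UMIs.

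**Figure D3:**
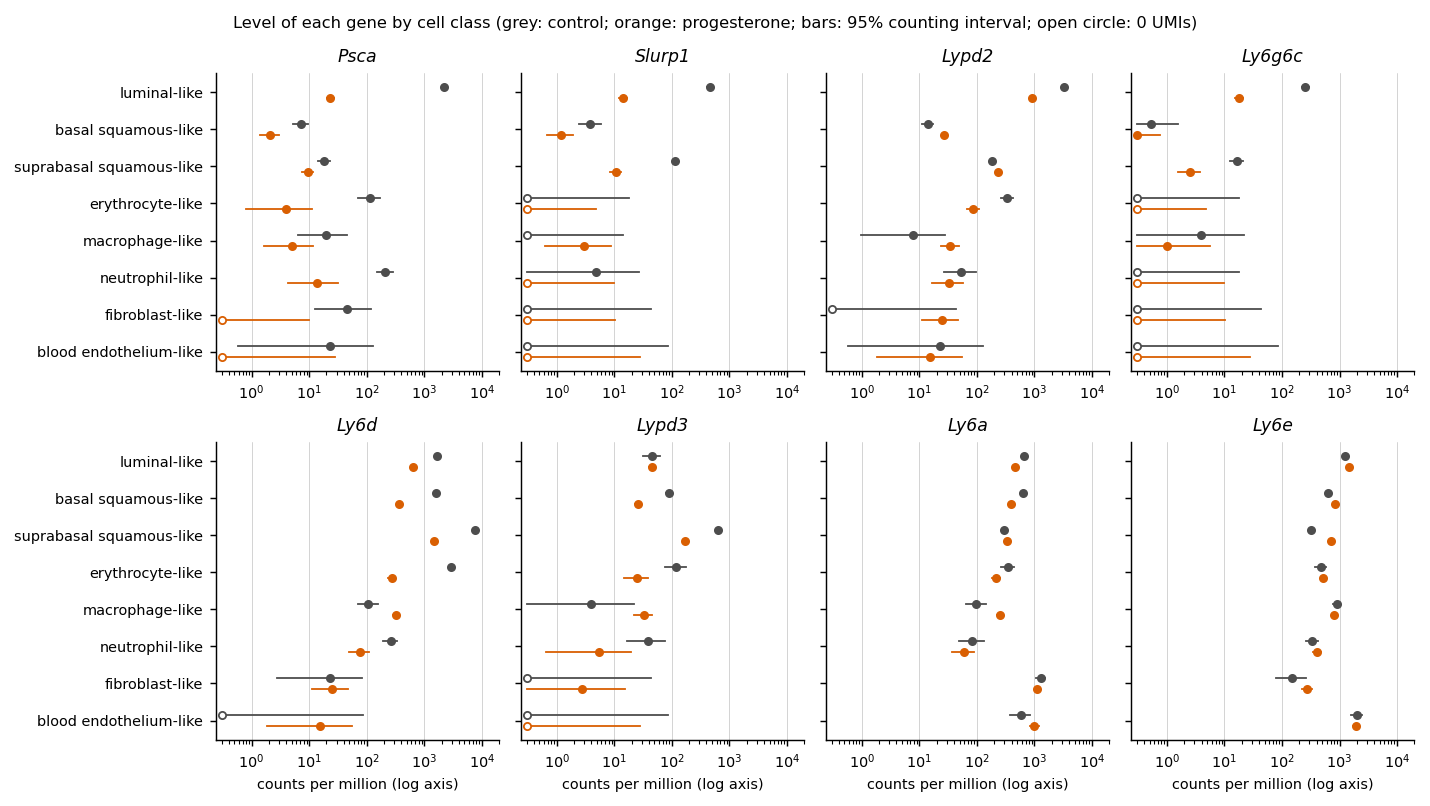
Level in CPM on a log axis (horizontal) of each Ly6 family gene in 8 named cell classes (vertical), grey for the control and orange for the progesterone library, with 95% counting intervals; open circles are 0 UMIs. Slurp1 and Ly6g6c are highest in control luminal-like cells (460 and 254 CPM), Ly6d and Lypd3 in control suprabasal squamous-like cells (7577 and 630 CPM).

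Ly6d and Lypd3 were the squamous pair. Ly6d, a keratinocyte surface protein, had the most UMIs of the 8 genes over all control cells, at 3946 CPM in the control and 752 CPM in the progesterone library. In squamous-like cells it was 4085 CPM [4045–4125] and 800.1 CPM [788–812], 5.11-fold lower [5.02–5.20]. Suprabasal cells held more than basal cells in both libraries, 7577 against 1610 CPM in the control and 1486 against 364 CPM with progesterone. Thinned shares of cells with a UMI were 73.1% and 90.0% in the control layers and 34.0% and 71.3% in the progesterone layers. The lower level was also seen inside clusters that held both libraries, though by smaller factors. In the suprabasal cluster 0 it was 2208 and 1483 CPM, 1.49-fold lower [1.41–1.57]. In the basal clusters 1, 2 and 7 it was 1694, 769 and 962 CPM in control and 824, 293 and 405 CPM in progesterone cells. The basal cluster 4 (201 and 205 cells) had 1773 and 447 CPM, 3.97-fold lower [3.67–4.30]. That factor was nearest to the 4.42-fold of the whole basal layer. Cluster 6, nearly all control, had 8595 CPM [8496–8694]. In cluster 3 the libraries did not differ beyond counting error, 4671 and 4748 CPM, a ratio of 1.02 [0.976–1.06].

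Ly6d UMIs were not confined to squamous-like cells. Luminal-like cells held 1662 CPM [1572–1756] in the control and 632 CPM [617–647] in the progesterone library, 2.63-fold lower [2.48–2.79]. This log2 ratio of −1.40 was −4.06 with the libraries clustered apart, −2.58 by keratin UMIs and −2.24 with the family and list genes kept in the clustering. In the progesterone library the luminal level varied between clusters, from 18.3 CPM (6 UMIs) in cluster 21 over 276 CPM in cluster 13 and 345 CPM in cluster 12 to 1536 CPM in cluster 17. Macrophage-like cells of that library had 318 CPM (314 UMIs) and erythrocyte-like cells 273 CPM (211 UMIs). The levels of clusters 13 and 12 were thus close to those of cells outside the epithelium. Ly6d was also read at 2874 CPM in the 38 control erythrocyte-like cells, which held Krt14 at 10408 CPM, and at 260 CPM in 330 control neutrophil-like cells, which held Krt14 at 1860 CPM; the part of free or attached epithelial RNA in these levels was not tested. Fibroblast-like cells had 23.2 and 24.7 CPM.

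Lypd3, known for cell adhesion in suprabasal keratinocytes, was 313 CPM [302–324] in control and 81.6 CPM [77.9–85.5] in progesterone squamous-like cells, 3.83-fold lower [3.61–4.06]. In suprabasal squamous-like cells it was 630 CPM [606–655] and 170 CPM [162–179]. That order turned around in cluster 0, where Lypd3 was 71.2 CPM in control and 168 CPM in progesterone cells, 2.36 times as high [1.76–3.23]. The control level of the layer came from cluster 6, with 736 CPM [708–766] and 2508 of the 2554 control UMIs of the layer. Lypd3 was thus lower with progesterone when the suprabasal layer was taken whole and higher within the suprabasal cluster that both libraries filled. In basal cells it was 87.8 and 25.4 CPM, but different clusters filled that layer: cluster 1 held 659 control and 39 progesterone cells, and clusters 2 and 7 most progesterone cells. Within them no difference beyond counting error was read, with ratios of 1.02 [0.650–1.53] in cluster 1, 2.70 [0.728–22.6] in cluster 2 (from 2 control UMIs), 0.791 [0.623–1.003] in cluster 4 and 0.915 [0.427–2.34] in cluster 7. In luminal-like cells it was low, 45.7 CPM [31.9–63.6] and 44.7 CPM [40.7–48.9], a log2 ratio of −0.05 that depended on the choice of cells. The ratio was −1.87 with the libraries clustered apart, −1.02 with cells assigned by keratin UMIs, −0.58 without doublet removal and 0.12 when the most abundant genes were left out of the scaling.

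**Figure D4:**
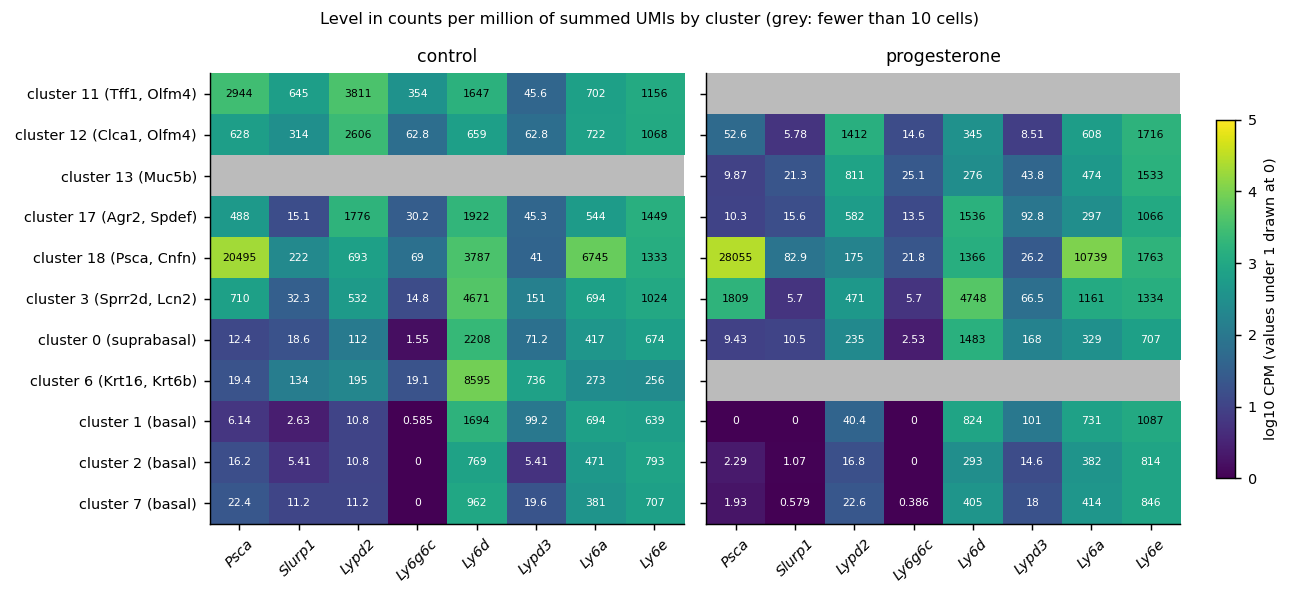
Level in CPM, printed in each cell and coloured on a log10 scale, of each Ly6 family gene (columns) in 11 clusters (rows) of the control and progesterone libraries; grey rows had fewer than 10 cells. Cluster 18 has Psca at 20495 and 28055 CPM in the 2 libraries, while Lypd3 in cluster 0 is 71.2 and 168 CPM.

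Ly6a and Ly6e were the broad members. Ly6a was highest in cluster 18, at 6745 CPM [6527–6968] in the control and 10739 CPM [10319–11172] in the progesterone library, and the 79 and 16 cells of that cluster held 24.9% and 14.1% of its UMIs. Among named classes fibroblast-like cells led, with 1275 CPM [1048–1537] and 1129 CPM [1022–1243], intervals that overlap. Luminal-like cells had 659 CPM [602–719] and 463 CPM [450–476], and squamous-like cells 494 and 368 CPM, 1.42-fold and 1.34-fold lower. Ly6a was read in most epithelial classes at similar levels, and its near copies Ly6c1, Ly6c2, Ly6f and Ly6i could share reads with it. Those copies had 9.50, 13.8, 0.348 and 0.497 CPM over all control cells, against 723 CPM of Ly6a, and the value of Ly6a is uncertain to the extent that reads were shared.

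Ly6e was the only member with a higher level in the progesterone library in both main classes. In luminal-like cells it was 1228 CPM [1151–1310] in the control and 1435 CPM [1412–1458] in the progesterone library, a ratio of 1.17 [1.09–1.25]. In squamous-like cells it was 504 and 784 CPM, a ratio of 1.55 [1.50–1.60], with 2.19 [2.07–2.33] in the suprabasal and 1.31 [1.27–1.36] in the basal layer. Within shared clusters the order was not uniform. The ratio was 1.05 [0.952–1.16] in the suprabasal cluster 0 and 1.03 [0.913–1.16] in the basal cluster 2, where no difference beyond counting error was read, and 1.70 [1.49–1.93] in the basal cluster 1. The basal clusters 4 and 7 had ratios of 1.45 [1.33–1.57] and 1.20 [1.05–1.36]. In the luminal-like cluster 17 Ly6e was lower with progesterone, 1449 and 1066 CPM, a ratio of 0.735 [0.651–0.833]. The luminal-like cluster 12 went the other way, with a ratio of 1.61 [1.15–2.32] from 14 control and 732 progesterone cells. Counting by keratin UMIs gave log2 ratios near 0 in luminal-like cells (0.014 instead of 0.22) and 0.14 instead of 0.64 in squamous-like cells. Its thinned share was 85.5% and 90.8% of luminal-like cells. Blood endothelium-like cells were highest among named classes, with 2003 CPM [1604–2471] and 1927 CPM [1696–2180]. Macrophage-like cells had 895 and 792 CPM, also with overlapping intervals.

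Ly6e is known as an interferon-inducible gene, and many other interferon-induced genes were also higher in the progesterone library. Whether interferon had a part in the Ly6e levels was not tested. Of 12 such genes on a list, 11 could be compared in luminal-like cells, where 6 were at least 2-fold higher and 1 at least 2-fold lower, and 11 of 12 were at least 2-fold higher in squamous-like cells. The median log2 ratio of the list was 1.14 and 2.42. Over all genes 12.6% and 12.3% were at least 2-fold higher, with medians of 0.03 and 0.14. Bst2 (tetherin), a GPI-anchored antiviral protein, was 16.99 and 55.6 CPM in luminal-like and 5.02 and 32.8 CPM in squamous-like cells. Ifi27l2a was 13.1 and 85.8 CPM, and 8.80 and 72.8 CPM.

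In control cluster 3 most cells with Psca also held Lypd2, while Lypd2 was read in many cells without Psca too. A Lypd2 UMI was found in 79.0% [72.3–84.7] of 181 thinned control cells with Psca and in 34.9% [31.8–38.0] of 929 cells without it. Ly6a was found in 83.4% and 53.8% of the same cells. In control luminal-like cells nearly all cells held Lypd2, so detection could not separate the pair there, and the correlation over 152 thinned cells was 0.43. In progesterone luminal-like cells, 5.76% [4.50–7.25] of 1180 cells with Lypd2 and 1.27% [0.551–2.49] of 629 cells without it had a Psca UMI. The few progesterone luminal-like cells with a Psca UMI thus mostly held Lypd2 too. Cluster 12 held 173 of the 243 Psca UMIs and 4645 of the 9530 Lypd2 UMIs of this class. The part of cluster make-up in the relation was not tested.

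Slurp1 and Ly6g6c also shared cells. Ly6g6c was found in 45.2% [29.8–61.3] of 42 control luminal-like cells with Slurp1 and in 9.09% [4.45–16.1] of 110 without it. Within cluster 11 the shares were 47.5% of 40 cells and 9.52% of 63 cells. Ly6d had the opposite relation: it was found in 21 [34.2–65.8% of cells] of the 42 cells with Slurp1 and in 76.4% [67.3–83.9] of the 110 without it. In the suprabasal layer of the control, Ly6d and Lypd3 went together, with Lypd3 in 53.5% [48.8–58.2] of 452 cells with Ly6d and in 10.0% [3.33–21.8] of 50 without it. Ly6e again stood on the other side, in 47.1% of cells with Ly6d and 70.0% of cells without it. Both relations were weaker inside the clusters that make up the layer: the correlation of Lypd3 with Ly6d was 0.40 over the layer and 0.14 in cluster 6, and that of Ly6d with Ly6e −0.32 over the layer, −0.12 in cluster 6 and −0.03 in cluster 0. In control cluster 0 Lypd3 was found in 14.7% of cells with Ly6d and 10.2% without it, with overlapping intervals. Across all 793 ordered pairs of genes compared within a class or cluster of 1 library, the intervals of the 2 shares did not overlap in 115, and in 105 of these the share was higher with the other gene. Each pair enters in both directions, and classes are counted beside their own clusters, so the 793 are not separate comparisons. Pairs of other genes were not counted, so these counts have no background and are not read as a trait of the family. Cells of 1 library share their depth and free RNA, so all shares given here are a description.

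**Figure D5:**
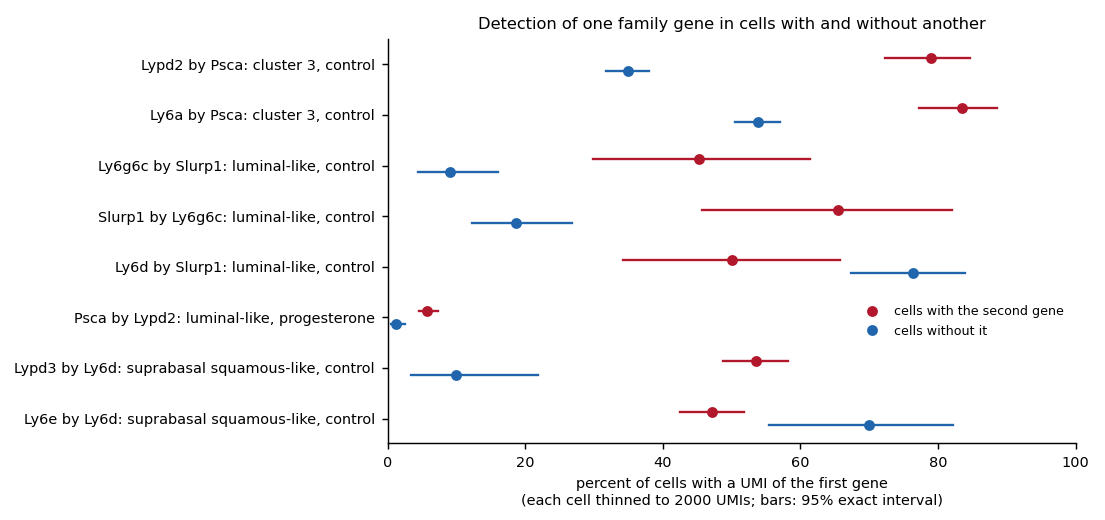
Percent of cells with a UMI of a first gene (horizontal axis) among cells with (red) and without (blue) a second gene, each cell thinned to 2000 UMIs, with 95% exact intervals, for 8 gene pairs. Ly6g6c is found in 45.2% of control luminal-like cells with Slurp1 and 9.09% of those without.

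Across 16 profiles, 1 per named class and library, the members fell into pairs by Pearson correlation of log2 CPM (10 CPM added). Lypd3 and Ly6d correlated at 0.94 and Slurp1 and Ly6g6c at 0.93, while Ly6a and Ly6e correlated at 0.09. The profiles share libraries and depth, and no p is given. Among 11848 genes Prss27, a serine protease, was most like Psca (0.93), followed by Crct1, Lce3c, Spns3 and Muc13. Pdzk1ip1 was most like Lypd2 (0.96), followed by Bicdl2, Fbp2, Fxyd4 and Slc5a9. For Lypd3 these were Tmprss13 (0.97), Dmkn, the desmosomal genes Pkp1 and Dsg3, and Sfn, and for Ly6d Pkp1 (0.98), Dsg3, Sfn, Urah and Krt5. For Slurp1 they were Tnnt2 (0.97), Syt16, Aldh3b2, Atg9b and Tgm5, and for Ly6g6c Dnah5 (0.99), 2310003N18Rik, Atg9b, Fam3b and Upk2, so that Atg9b was shared. For Ly6a Afap1 (0.96), Mxra7, Npat, Mosmo and Wdr6 came first, and for Ly6e Fryl (0.91), Mlycd, Bloc1s5, Cebpg and Pithd1. These lists depended on the profiles. With 36 cluster profiles Psca again had Prss27 first (0.96), but each of the other 7 members had another gene first, such as Krt78 for both Slurp1 and Ly6g6c, and no member had more than 2 of its 5 genes in common.

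The rest of the family was read at low levels. Of 35 other family genes on a list 30 were in the files. In luminal-like cells 11 of them had at least 20 UMIs, of which 1 was at least 2-fold lower and none at least 2-fold higher in the progesterone library. In squamous-like cells 12 had enough UMIs, with 3 lower and 2 higher. Pinlyp was 67.0 CPM in control and 9.84 CPM in progesterone squamous-like cells, 6.81-fold lower [5.84–7.97], and Cd59a, which protects cells from complement, was 6.346 and 13.005 CPM. Ly6k was 24.5 and 30.9 CPM and Lynx1, a GPI-anchored regulator of nicotinic receptors, 21.7 and 17.9 CPM. The median log2 ratio of these 12 genes was 0.03, that of all genes in the class 0.14. Within 2-fold were 10 of these 11 genes in luminal-like and 7 of these 12 in squamous-like cells. Over all genes of the 2 classes 7.91% and 6.53% were at least 2-fold lower, and 12.6% and 12.3% at least 2-fold higher. Slurp2, named here for its place between Lypd2 and Ly6d, had 81 control and 9 progesterone UMIs over all cells; its transcripts overlap those of Lynx1, so the counts are uncertain.

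The receptors that Slurp1 is known to act on were hardly read. Of 16 nicotinic acetylcholine receptor subunit genes, 1 in luminal-like and 2 in squamous-like cells had at least 20 UMIs, and their summed level was 2.61 and 3.37 CPM in luminal-like and 1.54 and 1.96 CPM in squamous-like cells. Genes of GPI anchor attachment and remodelling, which the anchored members need, were within 2-fold in 9 of 9 cases in luminal-like and 9 of 10 in squamous-like cells. Most of all compared genes also were: 7.91% and 6.53% were at least 2-fold lower, and 12.6% and 12.3% at least 2-fold higher. Pigt, a subunit of the GPI transamidase, was 319 and 215 CPM in luminal-like cells. Agr2, a disulfide isomerase of mucous cells that is a reported Lypd3 ligand, was 2641 and 3992 CPM in luminal-like cells and 1.13 and 33.5 CPM in squamous-like cells. The squamous level was not above that of fibroblast-like (46.6 CPM) or blood endothelium-like cells (38.2 CPM) of the progesterone library. The laminin chain genes Lamb3 and Lama3 were 2.31-fold and 2.07-fold lower in progesterone squamous-like cells.

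Most compared genes of the upper squamous layer were lower in the progesterone library. Of 15 listed, 11 of the 12 with enough UMIs in squamous-like cells and 6 of the 9 in luminal-like cells were at least 2-fold lower, Sprr2f among them with 337 and 26.3 CPM in squamous-like and 1044 and 23.6 CPM in luminal-like cells. Spink5, a protease inhibitor of the upper epidermis, was 1730 and 92.8 CPM in luminal-like cells. Calml3 and Krtdap were at least 2-fold higher there, at 127 and 470 CPM and at 16.99 and 38.2 CPM. Over all genes of squamous-like and luminal-like cells 6.53% and 7.91% were at least 2-fold lower, and 12.3% and 12.6% at least 2-fold higher. Mucous secretory genes went the other way from the upper squamous list. Of 9 listed, 5 of 9 in luminal-like and 8 of 8 in squamous-like cells were at least 2-fold higher, and Clca1 was 217 and 4507 CPM in luminal-like and 0.307 and 32.2 CPM in squamous-like cells. Progesterone cells that should lack Clca1 held as much or more, 164 CPM in fibroblast-like and 68.8 CPM in blood endothelium-like cells, so the squamous level of Clca1 was not above background. Agr2 and Tff1 were likewise at or above their squamous level in fibroblast-like cells (46.6 and 115 CPM). The median log2 ratio of the mucous list was 1.61 in luminal-like cells and that of the upper squamous list −3.07. The low Psca, Slurp1 and Ly6g6c levels of progesterone luminal-like cells were thus read beside lower levels of 6 upper squamous genes, higher levels of 2 and higher levels of 5 mucous genes in the same class.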

How the data were processed

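Per the submitters' processing notes, the authors processed the reads with Cell Ranger 3.0.2 and the mm10 genome, and the deposited matrices hold UMI counts per gene and cell barcode; whether counting used strand is not given in the sources used here. The cell filter asked for 200 genes or more and no more than 20% mitochondrial counts, and 181 control and 680 progesterone barcodes were removed as doublets by Scrublet score at an expected 0.8% per 1000 cells. Both libraries were clustered together in scanpy 1.11.5 (Python 3.11.15, numpy 2.4.6, scipy 1.17.1, pandas 2.3.3) with 2000 variable genes, 30 components, 15 neighbours and Leiden resolution 1, after 106 genes (the family, the lists and near copies) were barred. Clusters were named from fixed marker lists; the naming thresholds had been adjusted in an earlier analysis after its clusters were seen. Levels are a gene's UMIs over all UMIs of a class in 1 library (CPM). The 95% intervals are exact: conditional binomial for a ratio, Poisson for a level, Clopper-Pearson for a share, except that a count of 0 is given the limit of 3 counts; UMIs of 1 cell are not independent of each other. Genes with at least 20 UMIs over both libraries in a class were compared. The ratio code was tested on simulated data. With 1 library per group no test was made. Symbols were looked up in GENCODE M21 by gene ID (30934 of 31053 IDs matched).

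All 8 genes are described. Of each other list at most the 3 highest and 3 lowest genes per class could be named, ranked by the interval bound nearest to a ratio of 1, and needed 100 UMIs or more in the higher library. For each member the 5 genes with the most similar profile are named. The members and lists were chosen with earlier results of these data known. Alternatives changed the cell filter, doublet removal, clustering, cell assignment, scaling, averaging and the clusters counted.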

Additional observations from a re-analysis of the deposited data

Results flagged for a closer look

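Lypd2 differed in opposite directions in the 2 epithelial classes. The log2 ratio of progesterone over control was −1.81 in luminal-like cells (3209 and 917 CPM) and 0.37 in squamous-like cells (83.4 and 108 CPM). The difference between the classes was not tested, since each group has 1 library, and the squamous value changed sign under another choice of squamous cells. Control erythrocyte-like cells held more Lypd2 than control squamous-like cells, 334 CPM (68 UMIs).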

How the results depend on the processing

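No paired analysis was possible because each group has 1 library, so the groups share fewer than 2 replicate numbers. Log2 ratios in luminal-like cells were recomputed under 10 alternatives and in squamous-like cells under 9; those that count clusters 18 or 3 in a class, or leave out cluster 11, were chosen after seeing the data. Psca, −6.54 in luminal-like cells, was −6.24 with a stricter cell filter, −3.72 with the family and list genes kept in the clustering, −3.51 with cells assigned by keratin UMIs, −3.95 with cluster 18 added and −4.48 without cluster 11. Slurp1 (−5.02) was −4.26 with the libraries clustered apart, −2.04 with those genes kept, −4.53 with cluster 18 and −1.99 without cluster 11. Lypd2 (−1.81) was −0.96 clustered apart, −0.77 with those genes kept, −1.01 by keratin UMIs, −1.63 with the other scaling, −1.68 as the mean of each cell's CPM, −1.27 with cluster 18 and −1.04 without cluster 11. Psca, Slurp1 and Lypd2 were lower with progesterone in luminal-like cells under all 10.

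In squamous-like cells Psca (−1.25) was −2.58 by keratin UMIs, −2.07 as the mean of each cell's CPM and −2.70 with cluster 3. Slurp1 (−3.38) was −3.05 with no doublet removal, −3.08 clustered apart and −2.90 by keratin UMIs. Lypd2 (0.37) was 0.60 with no doublet removal, 0.061 clustered apart, 0.63 with those genes kept and 0.58 with the other scaling, and turned to −1.23 by keratin UMIs and −1.21 with cluster 3. Other members also moved in luminal-like cells. Lypd3 (−0.05) was 0.12 with the other scaling, 0.0045 with cluster 18, −1.87 clustered apart, −1.02 by keratin UMIs and −0.58 with no doublet removal. Ly6a (−0.51) was 0.026 with those genes kept, −1.12 clustered apart, and −2.21 both by keratin UMIs and with cluster 18. Ly6d (−1.40) ranged from −4.06 clustered apart to −1.22 with the other scaling, and Ly6g6c (−3.82) was −0.72 with those genes kept and −0.98 without cluster 11, both under 2-fold. Except where a cluster was added or left out by construction, the cause was not tested. Depth limits the low members: Ly6g6c in basal cells and Slurp1 in cluster 17 rest on 3 control UMIs each.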
